A study of Aegilops tauschii x Triticum turgidum with 4 samples.

Results

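The transcripts described here are 220 of the 37826 plant probes on the array, those well above background in the crowns of growth-aborting wheat hybrids and not well above background in hybrids of normal growth. A probe was a member when its spot was well above background on both arrays of the severe growth abortion (SGA) group and on neither wild-type array, and when its SGA signal lay at least 10-fold above the wild-type detection floor. That floor is the lowest signal called well above background on an array, and each wild-type value below it was raised to it before the fold was taken. The folds of members are therefore lower bounds, except for 4 members whose spots exceeded the floor on both wild-type arrays, where the value is the measured fold of a spot not well above background. Signals were scaled to the 75th percentile of their array. Probes with an outlier flag and probes whose names begin with whsh_allContig or ncbi_gi_ were left out; without this last condition 232 probes met the rule.

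The plants were 3-week-old triploid hybrids of tetraploid wheat with Aegilops tauschii, kept at 23 °C. One group had the wild-type phenotype and the other showed SGA, with 2 single-colour arrays each, and RNA came from the crown, the base of the shoot. The labels call the tissue crown leaf and also shoot meristem. They name no parental lines, so genotype and phenotype cannot be told apart. Each slide held 1 array of each group, with wild type always at position 3 and SGA always at position 4, and these places cannot be told apart from the phenotype either. Nothing says whether the replicates came from separate plants, and the spread between arrays may be technical.

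As background, tetraploid wheat carries the A and B genomes and Aegilops tauschii is the D-genome donor of bread wheat, so crosses between them rebuild the genome combination of bread wheat. Some such crosses give weak, necrotic or dying seedlings, known as hybrid incompatibility, in which parental alleles that are harmless apart are harmful together. The crown holds the shoot apical meristem, the dividing cells that form leaves and tillers. The title of the series concerns failing mitotic cell division at the shoot apex of such hybrids. The files name probes by sequence contig or clone and pair none of the members with a gene, so no function is given to any member, and the tissue could not be checked against marker genes. In whole crowns, more cells of a type and more RNA per cell cannot be told apart.

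Between 27627 and 28749 plant probes were well above background on the wild-type arrays, and 29981 and 30258 on the SGA arrays. Detection was called on signal before scaling, and the median plant probe read 238 and 228 on the wild-type arrays and 503 and 543 on the SGA arrays. How far this brighter reading contributes to membership was not tested. Across the array, 4.35% of plant probes without an outlier flag were detected only in SGA, and 0.613% also passed 10-fold. The same rule turned round, for probes detected only in wild type, was met by 0.164%.

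The 220 members read far higher in SGA than in wild type, as the 10-fold minimum requires. On the wild-type arrays their processed signals ran from 4.21 to 25.4 with a median of 5.71 in replicate 1, and from 3.00 to 21.0 with a median of 4.62 in replicate 2. On the SGA arrays they ran from 314 to 19557 with a median of 875, and from 316 to 20981 with a median of 923. The 75th percentile of all plant probes was 2671 and 2813 on these 2 arrays, so the median member was not among the brightest probes. No member overlapped between the groups, which the rule requires. Together the members, 0.582% of the plant probes, contributed 0.000935% ± 4.06e-06 of the plant signal on wild-type arrays and 0.187% ± 0.00125 of it on SGA arrays (SD, n = 2 each).

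**Figure D1:**
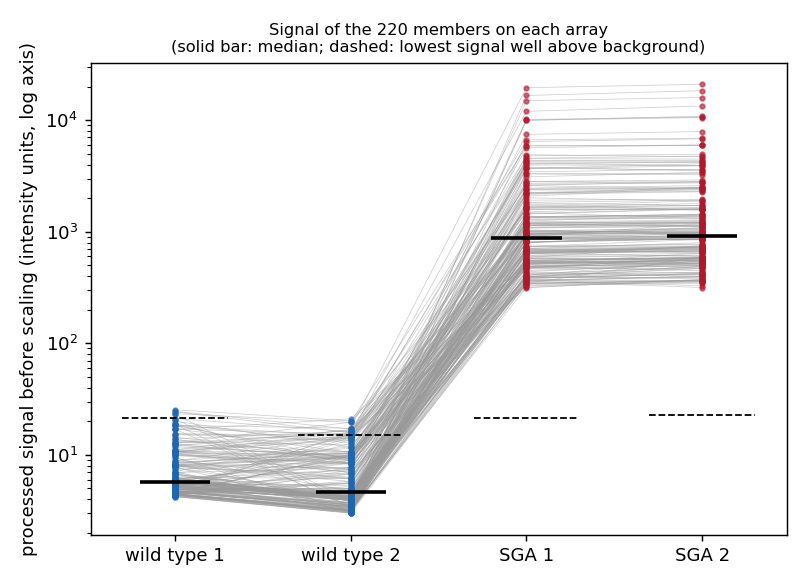
Processed signal before scaling (log axis) of each of the 220 members on the 4 arrays; a line joins the values of 1 member, solid bars are medians and dashed bars the lowest signal well above background on that array. The SGA values sit between 314 and 20981, and the wild-type values between 3.00 and 25.4.

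Wild-type signal was at or near background, though not at nothing for every member. Each array carried negative control spots, which match no plant sequence, and 118 of these had no outlier flag. After background subtraction 90 members on wild-type replicate 1 and 60 on replicate 2 read no higher than the 95th percentile of these spots, and 87 and 58 read at or below 0. Set against the highest of these spots, 118 members on wild-type replicate 1 and 98 on replicate 2 read no higher, and the others read above it. On the SGA arrays all 220 members read above every negative control spot, which follows from the rule. A less strict flag of the scanner software, positive and significantly above background, was set on neither wild-type array for 86 members, on 1 for 53 and on both for 81. The description "switched on only in SGA" therefore holds as a detection call for all members and under the less strict flag for 86 of them. The median log2 bound was 4.70 in these 86 and 4.72 in the 81 with a significant wild-type reading on both arrays. The floor replaces most wild-type readings in the bound, so this says little about the effect of a significant reading.

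The lower bounds spanned a wide range. Their median was 26.5-fold (log2 4.73), the upper quartile was 49.6-fold, and the extremes were 10.1-fold and 563-fold. The bound was under 20-fold for 81 members, from 20-fold to under 50-fold for 84, from 50-fold to under 100-fold for 27 and at least 100-fold for 28. The members were chosen by these same SGA and wild-type signals and detection flags, so the figures describe them and are no test. All 220 had an adjusted p under 0.05 in the fit over all probes (limma), where 43.1% of the 30005 tested probes were higher in SGA and 29.8% lower; the rule used this contrast, so nothing is read from that count.

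Each slide carried 1 array of each group, which gives a bound per slide. The median log2 bound was 4.56 on slide 1 and 4.93 on slide 2, and 218 of 220 members had the higher bound on slide 2. The wild-type floor, relative to the 75th percentile, was 0.37 log2 units lower on slide 2, and the median member's bound differed by -0.36 between slide 1 and slide 2. Wild-type signal lay at or under the floor for 215 members on replicate 1 and 203 on replicate 2, so for most members the floor and not the spot sets the bound. On slide 2 alone all 220 members reached 10-fold, and on slide 1 alone 204 did, with a lowest bound of 8.48-fold.

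**Figure D2:**
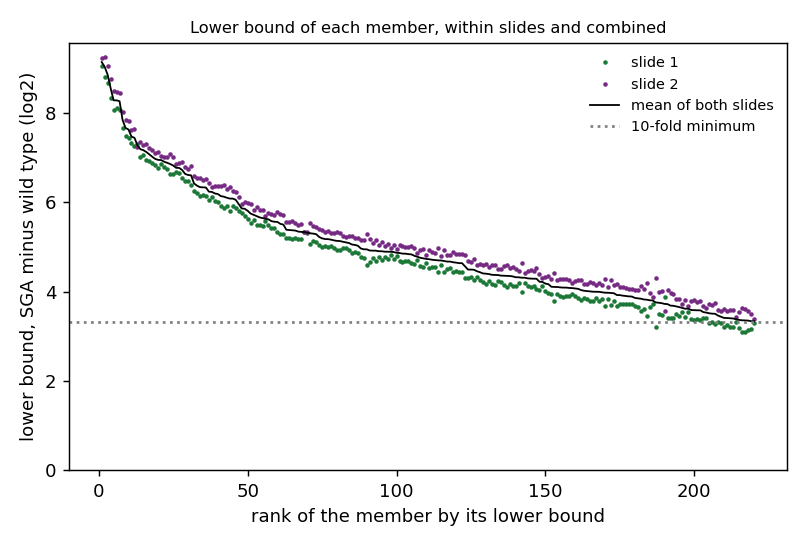
Lower bound of the SGA-minus-wild-type difference (log2) for the 220 members in rank order, within slide 1, within slide 2 and as the mean of both; the dotted line is the 10-fold minimum. The slide 2 points lie above the slide 1 points for 218 members, and the bounds fall from 9.14 to 3.33.

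The highest bounds belonged to contigs named wheat0130. Probe wheat0130Contig10397 read 18.4 and 17.3 in wild type but 19557 and 20981 in SGA. It was at least 563-fold higher, with 527-fold on slide 1 and 601-fold on slide 2. Its wild-type signal was low but above the less strict flag on both arrays. Probe wheat0130Contig5234 read 4.58 and 3.45 in wild type but 16658 and 18384 in SGA, at least 522-fold higher. After background subtraction its wild-type spots were below 0, at -5.82 and -3.02, whereas those of wheat0130Contig10397 were at 18.9 and 15.9.

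The next members followed the same pattern. Probe wheat0130Contig13180 read 5.67 and 3.99 against 14965 and 15960, a bound of 461-fold. Probe wheat0130Contig6407 read 5.12 and 15.3 against 12005 and 13414, a bound of 375-fold, and its wild-type replicates differed in that only replicate 2 was significantly above background. Probe wheat0130Contig12945 read 4.45 and 3.35 against 9972 and 10871, a bound of 311-fold. In none of these did an SGA array fall near the wild-type range, which follows from the rule. Probe MUGEST2003_23lib_Contig24983_442 read 5.09 and 4.28 in wild type but 10160 and 10649 in SGA, and its bound of 311-fold was the highest among contigs of that name class. These 6 probes were also the brightest members in SGA; with wild type at the floor, the bound follows the SGA signal by construction.

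Probes ranked 7 to 12 had bounds from 306-fold down to 174-fold. Probe wheat0130Contig7902 read 9.48 and 3.15 in wild type but 9992 and 10546 in SGA. Probe wheat0130Contig9867 read 6.02 and 7.40 against 7471 and 7905. For wheat0130Contig8071 the signals were 15.4 and 14.2 against 6663 and 6898. In each the SGA arrays lay close together and far from both wild-type arrays. Probe wheat0130Contig4401 read 4.78 and 3.44 against 6438 and 6800. Probe MUGEST2003_23lib_Contig9578_175 read 15.4 and 15.1 against 5906 and 5968. For MUGEST2003_23lib_Contig17746_992 the signals were 6.05 and 8.47 against 5654 and 5992. None of these probes was well above background in wild type, and all were so on both SGA arrays, as the rule requires.

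Ranks 13 to 16 held the highest members named after single clones. Probe rwhsl18g19 read 12.9 and 19.6 in wild type but 5873 and 5970 in SGA, a bound of 155-fold. It was 1 of the 2 members whose bound was not higher on slide 2, with 158-fold on slide 1 and 151-fold on slide 2. Probe rwhdl9i17 read 4.95 and 12.7 against 4788 and 4959, a bound of 145-fold. Probe whfl_allContig1760, a contig, read 4.99 and 4.11 against 4906 and 4697, a bound of 143-fold. Clone probe whr2e04 read 4.72 and 3.41 against 4565 and 4771, a bound of 139-fold. Of the 16 members with the highest bounds, 7 had no significant wild-type reading on either array under the less strict flag.

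At the edge of the rule the members shaded into other probes without a gap. Just inside lay wheat0130Contig9513 at 10.2-fold, MUGEST2003_23lib_Contig4320_1024 at 10.2-fold, rwhyd13c01 at 10.1-fold and wheat0130Contig5957 at 10.1-fold. Just outside lay rwhpc1k10_719 at 9.98-fold, MUGEST2003_23lib_Contig2954_677 at 9.93-fold, rwhvs13l03_214 at 9.92-fold and wheat0130Contig8681 at 9.91-fold. The first of the outer probes read 5.60 and 3.86 against 320 and 349, and the last of the inner ones 4.76 and 3.71 against 361 and 316. In all, 1617 probes outside the left-out name groups were detected only in SGA; 1397 of them stayed under 10-fold, 911 of these under 2-fold, and the members are 13.6% of the 1617.

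The SGA replicates gave nearly the same signal for most members, a measure the rule did not use. The median absolute difference between the SGA arrays after scaling was 0.054 log2 units over the members. It was 0.056 over 12019 other probes above background on all arrays with an SGA signal between the 10th and 90th percentile of the members, and 0.065 over all tested probes. The 90th percentile was 0.18 in the members and 0.15 in the probes of like signal. SGA replicate 2 was the brighter for 101 of 220 members after scaling and for 173 before it. A single member differed by over 0.5 log2 units: rwhyf24p13 read 344 and 596 in SGA and 10.8 and 7.35 in wild type, a difference of 0.72. It was followed by wheat0130Contig6490 (0.37, signals of 405 and 551), wheat0130Contig6650 (0.31, 902 and 1180) and MUG009A02R990107 (0.28, 588 and 751). Even for rwhyf24p13 the lower SGA reading was far above both wild-type arrays, although on slide 1 alone its bound was 9.27-fold against 19.7-fold on slide 2.

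**Figure D3:**
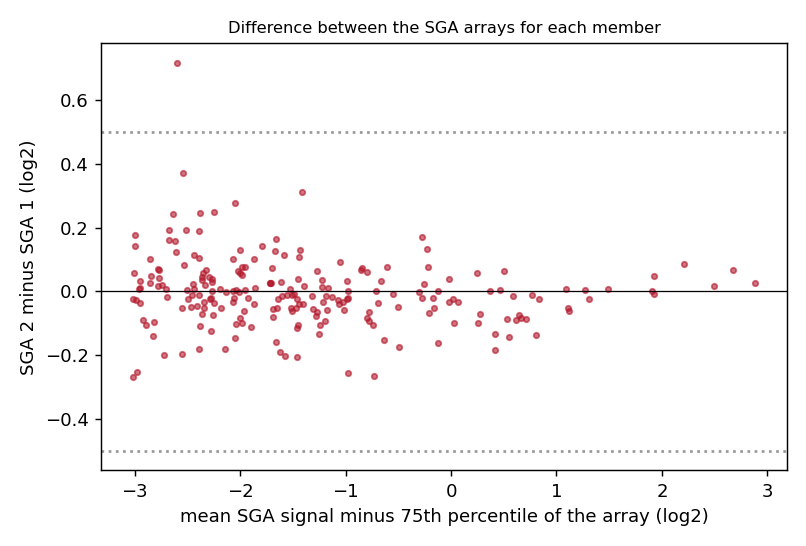
Difference between the SGA arrays (replicate 2 minus replicate 1, log2, after scaling) of each member against its mean SGA signal relative to the 75th percentile of the array (log2); dotted lines mark 0.5. One member, rwhyf24p13 at 0.72, lies outside the dotted lines.

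The members came from 33 of the 90 classes of probe names, a class being the name up to its first digit or to the word Contig. No source used here explains the letters. The class wheat0130Contig supplied 93 members, 0.667% of its 13952 probes, and MUGEST2003_23lib_Contig supplied 70, 0.922% of 7593. All plant probes together gave 0.582%. The class rwhr supplied 10 members, 3.29% of its 304 probes, although the class whr, whose names differ by the leading r, supplied 1 of 394. The highest rwhr member was rwhr18d11, which read 7.98 and 8.49 in wild type but 1811 and 1716 in SGA, a bound of 52.6-fold. The class rwhsd gave 3 members of 60 probes, and 26 classes gave 1 or 2 members each.

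**Figure D4:**
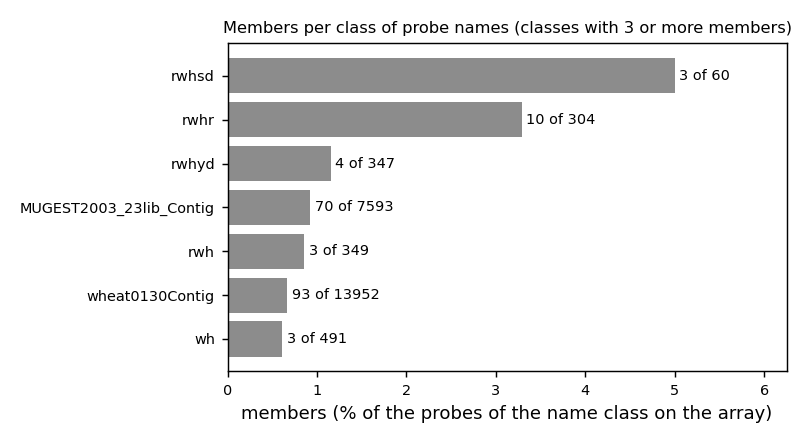
Members as a percent of the probes of each name class on the array, for classes with 3 or more members; the figures beside the bars are members and probes. The class rwhsd holds 3 members of 60 probes and rwhr stands at 3.29%, with the large contig classes wheat0130Contig at 0.667% and MUGEST2003_23lib_Contig at 0.922%.

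The leading r marked a wider difference. Of 4957 clone probes whose names begin with rwh, 42 were members (0.847%), and of 7364 whose names begin with wh, 11 were (0.149%). Detection only in SGA at any fold did not show this order, at 5.08% of the rwh probes and 6.30% of the wh probes. The shares that could be tested at all were 74.9% and 70.4%. The rwh probes thus took a larger part of the strong bounds and not of the detection calls, as a description of these arrays with no test.

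Some clones carried a probe under both names, 2593 on the array, and 29 members from 27 clones had such a partner, matched by name alone after the leading r and any trailing number were removed. The partner is another spot and did not enter the choice of its member, but may share sequence with it. For 2 clones both probes were members, beside 0.582% of all plant probes that were members. Probe rwh30j04 read 6.71 and 4.21 in wild type but 3694 and 4065 in SGA, and wh30j04 read 8.28 and 3.66 against 367 and 399, with bounds of 116-fold and 11.4-fold. Probe rwhdl16a10 read 21.0 and 3.70 against 2458 and 2589, and whdl16a10 read 5.37 and 6.29 against 421 and 483, with bounds of 75.3-fold and 13.5-fold. Both probes of each clone were well above background on both SGA arrays and on neither wild-type array, as membership requires.

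For the other 25 clones the partner was no member. It was above background on all 4 arrays in 8, detected only in SGA under 10-fold in 7, on some arrays in 6 and on none in 4. Over the whole array, 27075 of 37826 plant probes were above background on all 4 arrays. Of all plant probes without an outlier flag, 4.35% were detected only in SGA at any fold. Whether partners differ from these shares was not tested. Of the 8 partners measured on all arrays, 3 rose in SGA, 1 fell and 4 did not pass (limma, adjusted p under 0.05), against rises in 41.2% and falls in 31.8% of the probes measured on every array. With total-signal or spike-in scaling 5 of the 8 rose, whdp11p08_238 and whvs7o10_481 being the further ones, but under these scalings 72.6% and 77.2% of all tested probes rose. Without wild-type replicate 1, 3 of the 8 fell, whr14i18 and whyd23k24 in addition to whr4i03.

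The partners that rose differed widely in size. Clone probe wh34k04, 1 of the 4 members above the floor on both wild-type arrays, read 24.5 and 17.0 in wild type but 2365 and 2378 in SGA, 62.1-fold higher. Its partner rwh34k04 was measurable in wild type, at 137 and 103, and read 12046 and 12289 in SGA. It rose 54.9-fold (log2 5.78 ± 0.11 SE, n = 2 per group; limma, adjusted p = 5.31e-05; 5.67 and 5.89 on slides 1 and 2). Under the other scalings and corrections its difference ran from 5.28 to 6.67. Probe wh25l13 read 4.24 and 3.03 against 977 and 1012, a bound of 29.7-fold, and its partner rwh25l13 read 664 and 608 against 5404 and 5538 and rose 4.60-fold (log2 2.20 ± 0.049 SE; limma, adjusted p = 6.90e-05). Partner whyd18f02 rose 1.49-fold (log2 0.57 ± 0.051 SE; limma, adjusted p = 0.00164), from 235 and 219 to 609 and 658 before scaling, beside a bound of 35.1-fold for rwhyd18f02.

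Other partners were expressed in both groups with no such rise. Probe rwhr4i03 read 4.69 and 3.42 in wild type but 1168 and 1202 in SGA, a bound of 35.4-fold, while its partner whr4i03 read 2608 and 3033 against 2138 and 2454. Relative to the 75th percentile the partner fell by 1.20 on the log2 scale (SE 0.15; limma, adjusted p = 0.00386), and its difference was below 0 under each of the 7 scalings and background corrections run, from -1.46 to -0.31, although it did not pass with spike-in scaling. Partner whr14i18 read 355 and 451 against 528 and 646 before scaling, and its log2 difference of -0.36 ± 0.20 SE did not pass (limma, adjusted p = 0.18; 0.0441 with the replicate block, which is the slide). The partners whdp11p08_238 (-0.089 ± 0.15 SE), whyd23k24 (-0.25 ± 0.28 SE) and whvs7o10_481 (0.73 ± 0.41 SE) did not pass either. The last of these are dim in wild type: whyd23k24 read 27.6 and 42.3, and whvs7o10_481 30.1 and 58.5. Slides 1 and 2 gave 0.18 and -0.35 for whdp11p08_238, 0.13 and -0.63 for whyd23k24, and 1.31 and 0.15 for whvs7o10_481. For whvs7o10_481 the difference was 0.18 without wild-type replicate 1 and 1.28 without replicate 2. The differences of whdp11p08_238, whr14i18 and whyd23k24 were above 0 with the authors', total-signal and spike-in scalings. That of whvs7o10_481 was above 0 under each scaling and below it, at -0.0050, with normexp background correction alone. Whether a member and its partner differ from each other was not tested.

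By the grouping itself, members had bounds of at least 10-fold, and the 7 partners detected only in SGA had bounds under 10-fold. The largest was 5.34-fold for whr3j19, which read 4.77 and 4.11 in wild type but 169 and 190 in SGA, beside 27.0-fold for rwhr3j19. The smallest were 1.04-fold for whhg14f02_390 and 1.16-fold for whok18j17_243. That last partner read 4.69 and 3.58 against 36.8 and 40.8, whereas its member rwhok18j17_764 read 4.23 and 3.01 against 3318 and 3330, a bound of 99.2-fold. Of the 7, 4 reached 2-fold.

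**Figure D5:**
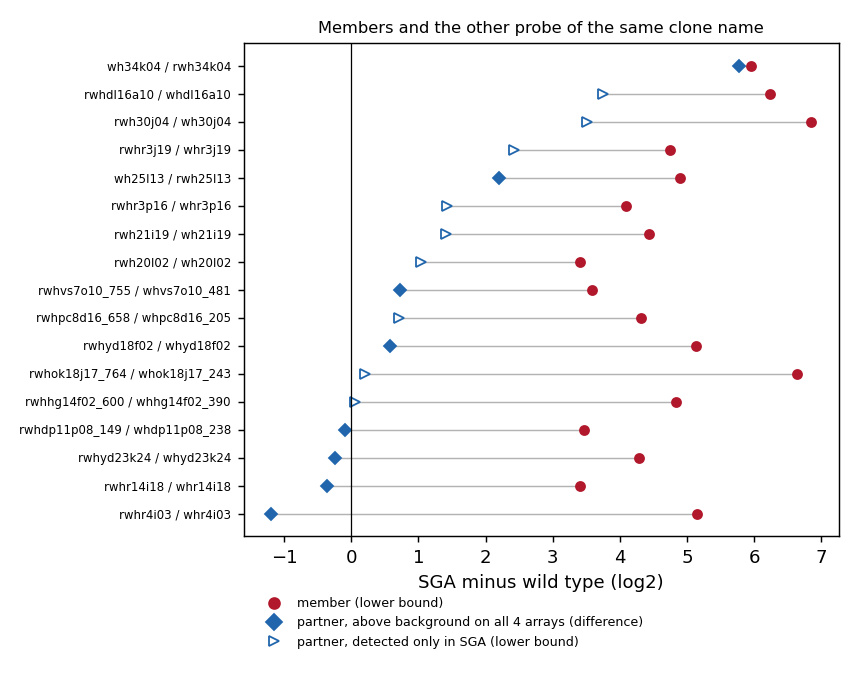
SGA minus wild type (log2) of members (circles, lower bounds except for wh34k04) and of the other probe with the same clone name: diamonds are differences of partners above background on all 4 arrays, triangles are lower bounds of partners detected only in SGA. The partners drawn run from -1.20 (whr4i03) to 5.78 (rwh34k04), and for the 2 clones with both probes in the set the probe with the higher bound is drawn as the circle. The 6 partners detected on some arrays and the 4 detected on none have no such value and are not drawn.

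A second kind of pair occurs where 2 probes share a contig or clone name and differ by a letter p or m, also unexplained. There were 9 members with such a partner, 5 named p and 4 named m, and no partner was a member. Of the 9 partners, 8 were above background on no array and 1 on some. Probe MUGEST2003_23lib_Contig19586_m_1376 read 4.35 and 3.10 in wild type but 4346 and 4320 in SGA, a bound of 129-fold, whereas MUGEST2003_23lib_Contig19586_p_1380 read 4.48, 3.24, 4.55 and 4.81 on the same arrays. Probe MUGEST2003_23lib_Contig14818_p_428 read 4.39 and 3.16 against 2169 and 2281, a bound of 66.4-fold, and its partner MUGEST2003_23lib_Contig14818_m_155 read 4.89, 38.5, 5.11 and 21.7. Probe MUGEST2003_23lib_Contig3972_p_535 read 4.26 and 3.08 against 1300 and 1332, with its partner MUGEST2003_23lib_Contig3972_m_165 at 5.65, 3.48, 10.6 and 5.06. In each pair the SGA signal was thus read by 1 of the 2 probes. On the whole array, 833 contigs or clones had both letters. In SGA 57.0% of them (475) were detected by 1 of the 2 probes, 11.9% (99) by both and 31.1% by neither. A member is detected in SGA by rule, so pairs detected by neither are no match for the 9. The members are too few to be set apart from the 475 and 99 pairs, counts that include the members' own pairs.

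The members were spread over the array. Cut at the middle row and middle column, its 4 blocks held 43, 48, 64 and 65 of them, between 0.449% and 0.697% of the plant probes in each. With the rule turned round and the same name groups left out, 55 probes were detected only in wild type and at least 10-fold lower in SGA. They were 23.1% of the 238 probes detected only in wild type at any fold, beside 13.6% for the members among probes detected only in SGA. The median log2 bound of the 55 was 4.23 and their highest bound 189-fold. A further 231 probes, above background on all 4 arrays, were at least 10-fold higher in SGA, with a median log2 difference of 4.34. Those probes and the members differ by whether wild type was readable, and the counts are given as description.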

How the data were processed

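Total RNA (0.5 µg) was labelled with Cy3, per the labels' protocols. Per the submitters' processing notes, spots were read with Agilent Feature Extraction 9.5. The deposited scanner files hold intensity: the processed intensity is background-subtracted with a surrogate for dim spots, per the file headers, and is not normalized between arrays. In the authors' deposited value table each array's intensity is multiplied by a constant of its own (1.04, 1.17, 0.803 and 0.767), a step no source used here states; it served as an alternative. Feature Extraction's flags, deposited by the authors, gave detection and outliers. No spot was saturated.

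Here log2 processed intensity minus the array's 75th percentile was fitted with limma 3.58.1 (R 4.3.3; lmFit, eBayes, two-sided, Benjamini-Hochberg, threshold 0.05) for 30005 probes above background on both arrays of at least 1 group. The fit was also run on simulated data with independent noise per array and few changed probes. That setting differs from these data, so nothing is read from it. Tables were made with pandas 2.3.3. With 2 arrays per group, whose number limits the precision, an exact two-sided p cannot go below 0.333. Replicate numbers mark the slide, per the file headers, and pair the arrays (r = 0.20 between deviations of same-numbered arrays). The members, lists and rules were chosen with earlier results of these data known. Probes were named by rule (16 highest bounds, 6 brightest, 4 on each side of the minimum, 4 largest SGA replicate differences, the top member of classes with at least 5 members); partner probes and their members were added after values were seen. The marker lists could not be matched, because no probe is paired with a gene. The normexp alternative used the median spot intensity (offset 50), since the files give no mean.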

Additional observations from a re-analysis of the deposited data

How the results depend on the processing

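The number of probes meeting the rule (220) was 339 with spike-in scaling, 67 with normexp, 82 with normexp and quantile normalization, 435 without the floor, 352 at a 5-fold and 139 at a 20-fold minimum, and 218 to 246 when 1 array was left out. It was 198 with median scaling, 269 with the authors' values and 304 with total-signal scaling. Of the 220, 67 met the rule under each scaling and correction. With the less strict flag 219 probes met it, of which 86 were members. The median log2 bound (4.73) was 4.46 with median, 5.14 with the authors', 5.36 with total-signal and 5.61 with spike-in scaling, 2.74 with normexp, 2.95 with normexp and quantile, 6.26 without the floor, and 4.55 to 4.90 when 1 array was left out. The normexp offset of 50 is added to every spot and shrinks folds against dim wild-type spots by construction. Over all probes, 12943 rises became 8198 with median, 21779 with total-signal and 23167 with spike-in scaling, which move the median tested probe from 0.16 to -0.11, 0.79 and 1.04 log2 units, and 8474 to 13549 when 1 array was left out; the lowest was without SGA replicate 2. Partners above background on all arrays that rose (3 of 8) were 5 with total-signal and with spike-in scaling, and 3 to 4 when 1 array was left out; those that fell (1 of 8) were 2 with median scaling, with normexp and with normexp and quantile, 0 with spike-in scaling, and 1 to 3 when 1 array was left out. The members' signal share in SGA (0.187%) was 0.231% with both name groups kept and 0.186% to 0.188% when 1 array was left out. With the replicate block, which is the slide block, all 220 members passed, 13559 probes rose, 3 of the 8 partners rose and 2 fell (1 in the fit without it). The bounds of the 29 probes named by rule stayed above 0 under each of 12 alternatives. This was nearly certain, since each was near or above 10-fold in the main setting. In that setting 4 of the 29 lay just outside the 10-fold minimum, and the others did not all keep it. The smallest bound was 1.28 log2 units, for MUGEST2003_23lib_Contig4320_1024 with normexp, against 3.35 in the main setting. The partner alternatives were chosen after seeing the data.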
